A study of Rattus norvegicus with 46 samples.

Results

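The 8 mildest stroke lesions of this series, judged by how little they expressed 4 immune cell genes, were compared with 16 intact rat brains to ask which transcripts differ from intact brain where immune gene expression is lowest. The series holds 46 libraries, 30 of them from lesions. The 8 were chosen by a score, the mean log2(CPM + 1) of those 4 genes in each lesion library, where CPM is a gene's count scaled to the library total, and are the 8 lowest. The other 22 lesions serve only to show where the mild ones differ. All rats were male Wistar rats, 3 months old at the start, and carried no genetic change that the labels name. Lesion tissue was collected at day 14 from rats with an occluded middle cerebral artery (MCAO), a blockage of the artery that feeds much of the lateral cortex and the striatum. The ketogenic diet supplied 84% of its 6431 kcal/kg as fat, 11% as protein and 5% as carbohydrate, and the standard diet supplied 11%, 24% and 65% of its 3227 kcal/kg. Each diet ran for 2 months before surgery and 2 weeks beyond it. The mild lesions comprise 5 libraries on the ketogenic and 3 on the standard diet, the other lesions 14 and 8, and the intact brains 8 and 8. Whether the intact rats had sham surgery, and from which brain region either tissue was cut, is not given in the sources used here.

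After an arterial blockage, neurons in the core die within hours to days, microglia turn into phagocytes, and monocytes and other blood leukocytes enter the tissue. Astrocytes at the edge become reactive and a scar forms over the following weeks, while debris is cleared by lipid-laden phagocytes. A bulk lesion sample therefore mixes dying or surviving neurons, reacting glia and newly arrived immune cells. In such samples fewer cells of a type and less RNA per cell cannot be told apart.

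The files give genes as Ensembl IDs without names, and of 30452 IDs 0 could be matched to the RefSeq gene table used here, made for another assembly (GRCr8). Names are therefore given only for the 4 score genes, as the selection rule pairs them with IDs. Brain cell type markers could not be checked, and the tissue is called by its label. For the same reason the genes whose changes are described below are given by ID and without a role, and no promoter sequence could be tied to any of them.

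All 4 score genes are expressed by myeloid cells. Cd68 encodes a lysosomal glycoprotein of phagocytes, Ptprc the leukocyte surface phosphatase CD45, Csf1r the receptor on which microglia and macrophages depend, and Itgb2 the shared chain of the leukocyte adhesion integrins. The score was 4.89 in ketogenic lesion 27, 5.61 in ketogenic lesion 9, 5.78 in ketogenic lesion 31 and 6.12 in standard-diet lesion 71. It was 6.57 in ketogenic lesion 29, 6.87 in ketogenic lesion 25, 6.94 in standard-diet lesion 70 and 7.09 in standard-diet lesion 82. The other lesions began at 7.29, in ketogenic lesion 3, and reached 8.75, while intact brains lay between 2.33 and 3.21. The last library taken and the first left out thus lay close together. These values chose the libraries and are a description only.

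The genes behind the score spread unevenly. Cd68 had a median of 48.3 CPM in mild lesions, from 12.2 to 151, against 195 CPM in the other lesions and 1.09 CPM in intact brain. Csf1r, which resting microglia already express, had medians of 419, 1095 and 55.9 CPM in mild lesions, other lesions and intact brain. Ptprc had medians of 24.2, 92.9 and 2.17 CPM, and Itgb2 had medians of 90.3, 310.4 and 3.51 CPM, in the same order. The 4 genes were left out of every result that follows.

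**Figure D1:**
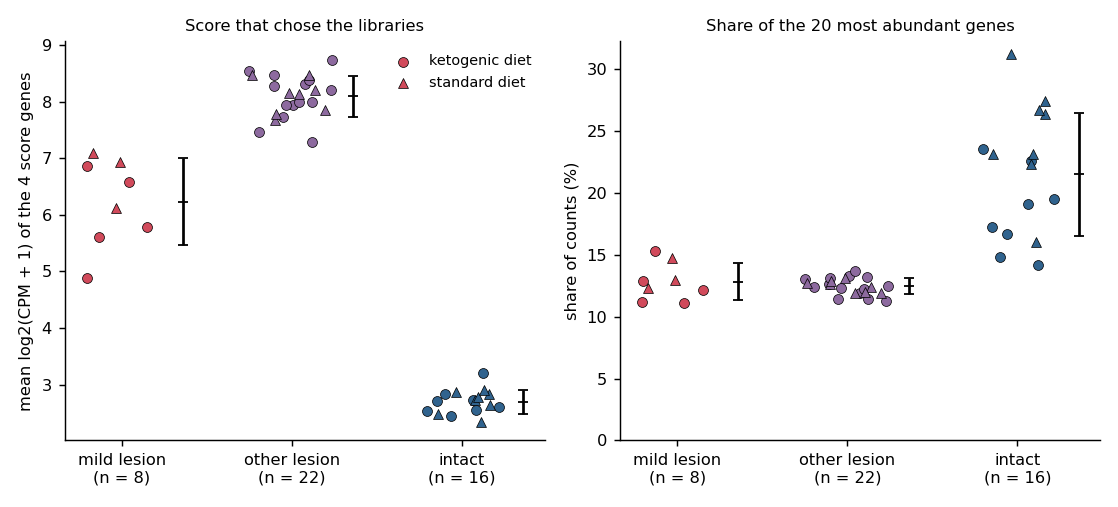
Left, the score of each library (mean log2(CPM + 1) of the 4 score genes), and right, the percentage of its counts held by its 20 most abundant genes, for mild lesions, other lesions and intact brain. Circles are libraries on the ketogenic and triangles libraries on the standard diet, and the bars give the mean ± SD; the mild lesions span scores from 4.89 to 7.09, above all intact brains, which end at 3.21.

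Libraries of mild lesions were deeper than those of intact brain, with 17482228 to 30601841 counts against 8883068 to 20420918. The mean was 22403118 ± 4160384 counts in mild lesions (SD, n = 8) and 15857072 ± 2816817 in intact brain (SD, n = 16). The means differed, though the ranges overlapped (two-sided exact permutation p = 7.07e-05, adjusted p = 0.000141 over 2 comparisons). The 20 most abundant genes of a library held 12.8% ± 1.51 of counts in mild lesions (SD, n = 8) and 21.5% ± 4.98 in intact brain (SD, n = 16), which also differed (two-sided exact permutation p = 0.000169, adjusted p = 0.000169). Depth and this share move with the tissue. Thinned to equal depth, 4102 genes were called higher and 4314 lower in mild lesions, close to the counts at full depth, and the part of the share in the results was not tested.

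Mild lesions differed from intact brain in most of the genes tested, those that passed a filter on low counts. The test covered 15278 genes and called 4417 higher (28.9%) and 4602 lower (30.1%) in mild lesions, 59.0% in all (edgeR quasi-likelihood test with diet as covariate, adjusted p under 0.05, 8 against 16 libraries). Most of these changes were small. Called genes had a median absolute log2 fold change of 0.53, and the medians were 0.61 for the genes that rose and -0.48 for those that fell. The libraries were picked for low expression of immune cell genes, so genes that vary along with those are drawn towards intact levels, and the p-values describe the comparison after that choice.

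Large changes were mostly rises. Past 2-fold there were 1176 rises (7.70% of genes tested) and 317 falls (2.07%). Past 4-fold the numbers were 331 (2.17%) and 20 (0.131%), and past 8-fold 74 (0.484%) and 1 (0.00655%). Past 16-fold lay 20 rises and 0 falls. The excess of rises past 2-fold was seen at mean levels of 1 to 10 and 10 to 100 CPM, but not at every level. Genes at 100 CPM and over had 34 rises and 56 falls of at least 2-fold. Those under 1 CPM had 67 of each. These values use TMM scaling (trimmed mean of M values, which centres on the bulk of genes). Library totals in its place gave 1718 rises and 130 falls past 2-fold, but they move all genes upward and so cannot test the tilt. The even split of all calls did not hold under them. With library totals 76.7% of calls were higher in mild lesions, where TMM gave 49%. The median log2 fold change of all genes was then 0.24, where TMM gave -0.01.

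**Figure D2:**
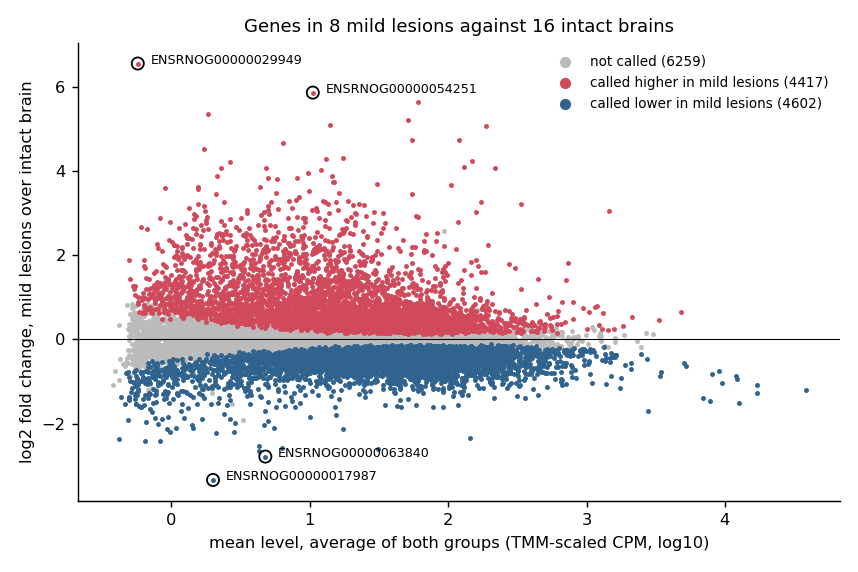
Each point is a gene, placed by its mean level (horizontal axis, log10 of TMM-scaled CPM, average of both groups) and its log2 fold change in 8 mild lesions over 16 intact brains (vertical axis). Red genes were called higher (4417), blue genes lower (4602) and grey genes were not called; the 4 circled IDs are those named in the text.

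Rises and falls lay at different expression levels. Of the 4258 genes with a mean level of 1 to 10 CPM, 33.6% rose and 17% fell in mild lesions, and 14.8% rose at least 2-fold. Among the 8057 genes at 10 to 100 CPM the shares were close, with 30.6% higher and 33% lower. Of the 2123 genes at 100 CPM and over, 18.9% rose and 50.3% fell. At least 2-fold falls made up 2.64% of genes there, 2.49% at 1 to 10 CPM and 1.09% at 10 to 100 CPM. Falls were thus mostly small at each of these levels, in libraries whose most abundant genes also held a smaller share of counts. By number, more falls lay at 10 to 100 CPM (2662) than at 100 CPM and over (1068). The excess of falls at 100 CPM and over was seen under TMM scaling, with a median log2 fold change of -0.197. Library totals move all genes upward, and calls were not split by level under them.

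Complete switching on or off was rare. Only 2 genes with at most 3 counts over all 16 intact brains averaged 1 CPM or more in mild lesions, and 0 of them reached 1 CPM in all 8 lesions. In the other direction, 5 genes with at most 3 counts over the mild lesions averaged 1 CPM or more in intact brain. Falls of that size were not among the calls: 0 falls were called past 16-fold, and the largest called fall had a log2 fold change of -3.34. The 5 genes are thus a description by counts and not called falls. Whether the filter on low counts removed them is not given.

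For a stricter reading, the ranges of single libraries were compared. In 776 genes (5.08% of genes tested) all 8 mild lesions lay above all 16 intact brains, and in 683 genes (4.47%) all 8 lay below. All 776 and all 683 were also called by edgeR, which used the same libraries, so this adds no separate support. Of the 1176 genes that rose at least 2-fold, 403 (34.3%) had ranges that did not overlap, and of the 317 that fell at least 2-fold, 125 (39.4%) did.

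The other 22 lesions, set against the same 16 intact brains, gave more calls and larger ones. Among 15519 genes, 6214 were called higher (40.0%) and 6580 lower (42.4%), 82.4% in all (edgeR, 22 against 16 libraries, adjusted p under 0.05). With library totals in place of TMM these were 8514 higher and 4178 lower, 67.1% of calls higher where TMM gave 48.6%. Past 2-fold there were 2792 rises (18.0%) and 1601 falls (10.3%), past 4-fold 1366 (8.80%) and 60 (0.387%), and past 8-fold 663 (4.27%) and 8 (0.0515%). Past 16-fold lay 262 rises (1.69%) and 0 falls. All 22 lay above all intact brains in 1936 genes (12.5%) and below them in 1515 (9.76%). The median absolute log2 fold change of called genes was 0.53 in mild lesions and 0.75 in the other lesions. The comparisons share their intact brains and differ in the number of lesions, so their counts are given side by side and no overlap is drawn from them.

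**Figure D3:**
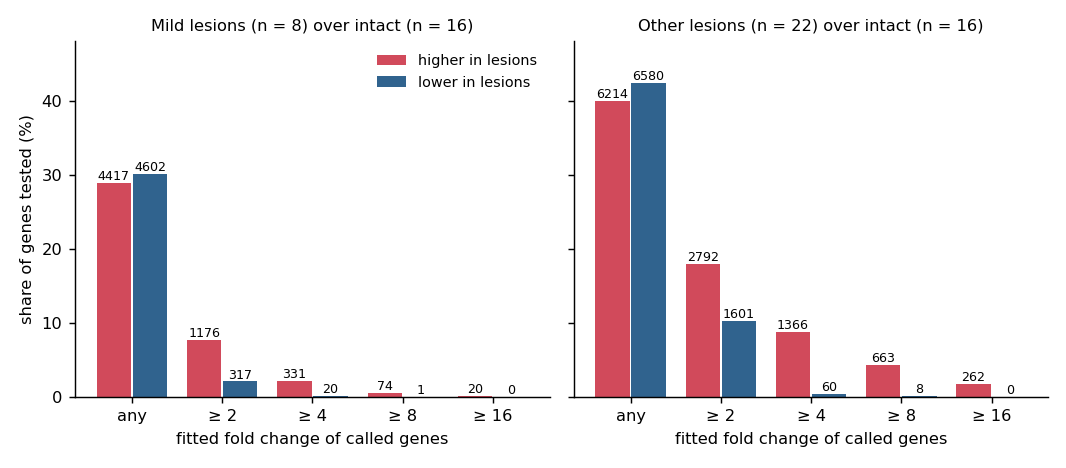
Share of genes tested that were called higher (red) or lower (blue) in lesions, by the least fitted fold change, for 8 mild lesions (left) and 22 other lesions (right) against the same 16 intact brains. Numbers over the bars are genes; in mild lesions 1176 genes rose and 317 fell at least 2-fold, in the other lesions 2792 and 1601.

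The mild lesions were not alike. The number of genes above the highest intact brain was 2764 in ketogenic lesion 27, 3061 in ketogenic lesion 9, 3408 in ketogenic lesion 31 and 2665 in standard-diet lesion 71. It was 3190 in ketogenic lesion 29, 3749 in ketogenic lesion 25, 2677 in standard-diet lesion 70 and 3772 in standard-diet lesion 82. Genes below the lowest intact brain numbered from 2405, in ketogenic lesion 27, to 3512, in standard-diet lesion 82. The other lesions had from 3325 to 4964 genes above and from 3239 to 5312 below. An intact brain set against the remaining intact ones had from 293 to 1677 genes above and from 410 to 1495 below. Every mild lesion thus lay further outside the intact range than any intact brain, and the mild lesions ran into the other lesions at their upper end.

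Rising genes varied more between mild lesions than falling ones. For each lesion the log2 change over the mean intact brain of its own diet was taken gene by gene, with 0.1 CPM added. Over the 1176 genes that rose at least 2-fold, the median change was 0.66 in ketogenic lesion 27 (0.655), 1.02 in standard-diet lesion 71 and 1.05 in ketogenic lesion 31. It was 1.36 in standard-diet lesion 70, 1.43 in ketogenic lesion 9, 1.51 in ketogenic lesion 29, 2.01 in ketogenic lesion 25 and 2.12 in standard-diet lesion 82. Over the 317 genes that fell at least 2-fold, the medians of the 8 lesions kept between -1.40 and -1.04. Per gene, the SD over the 8 lesions had a median of 0.67 for the rising genes, 0.37 for the falling ones and 0.25 for all genes tested (log2 scale).

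Ketogenic lesion 27, the lowest in score, shows this unevenness. Of the 1176 rising genes, 320 (27.2%) were at least 2-fold higher in it, while 228 of the 317 falling genes (71.9%) were at least 2-fold lower. It held the smallest change of the 8 for 679 rising genes (57.7%) and the largest for 13. In all 8 mild lesions at once, 184 rising genes (15.6%) and 41 falling genes (12.9%) were past 2-fold, and 930 rising (79.1%) and 304 falling genes (95.9%) kept their direction. Both gene groups were picked in these same libraries, so these counts describe them and test nothing.

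The rising genes took up more of each mild lesion library than of intact ones. They held between 1.99% of counts, in ketogenic lesion 27, and 7.19%, in standard-diet lesion 82, against 0.806% to 1.17% in intact brains. The other lesions lay between 5.27% and 15.1%. The falling genes held from 6.54% to 9.44% of counts in mild lesions, from 3.92% to 7.28% in the other lesions and from 10.7% to 23.4% in intact brains. Both gene groups were picked by their difference between these mild lesions and intact brains, so the direction of these shares follows from that choice and tests nothing.

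How far the mild lesions had moved, relative to the other lesions, depends on where the genes were picked. Among the 1176 rising genes, the mean of the other lesions was at least 2-fold above that of the mild ones for 869 (73.9%) and within 1.5-fold for 127 (10.8%). Among the 317 falling genes, the mean of the other lesions was within 1.5-fold of the mild ones for 239 (75.4%) and at least 2-fold lower for 12 (3.79%). Over all 15278 genes the other lesions were within 1.5-fold for 69.2%, at least 2-fold above for 8.74% and at least 2-fold below for 2.47%. For the falling genes, the shares within 1.5-fold and at least 2-fold lower thus lay near those of all genes. The share at least 2-fold above did not, with 2 falling genes (0.631%) against 8.74% of all genes. The mild lesions were chosen for low immune gene expression, so this contrast with the other lesions carries no test.

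For genes picked in the other lesions instead, the filter on low counts removed genes on the rising side only. Of the 2792 genes at least 2-fold higher there, 341 were not tested in mild lesions, against 0 of the 1601 at least 2-fold lower. The remaining 2451 higher genes had a median fitted change of 0.95 in mild lesions (0.946) and 1.87 in the other lesions. The 1601 lower genes had medians of -0.61 in mild lesions and -1.26 in the other lesions. In ketogenic lesion 27 these gene groups stood at 0.35 and -0.38, and in standard-diet lesion 82, the last of the mild lesions by score, at 1.39 and -0.89. Each pair of medians depends on the lesions in which its genes were picked.

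**Figure D4:**
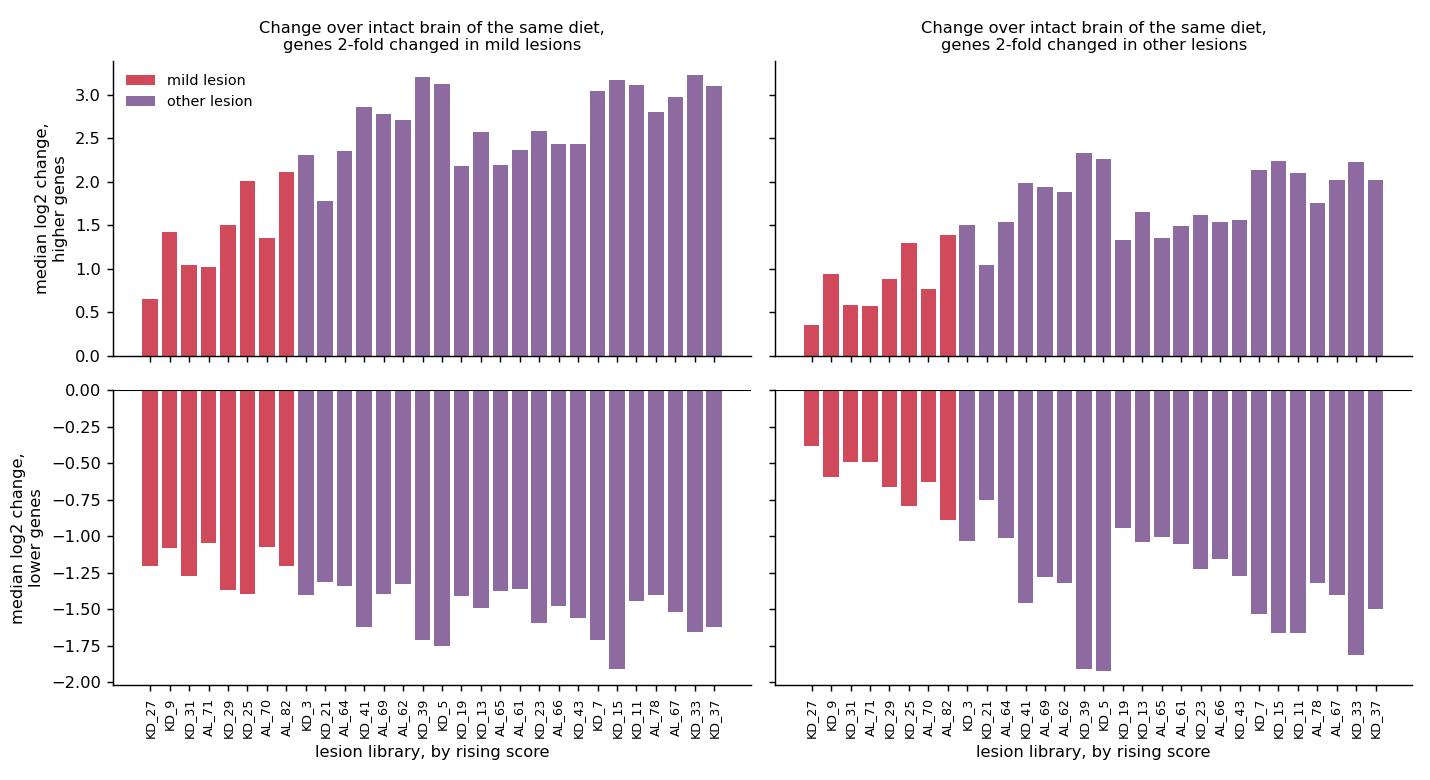
Median log2 change of each of the 30 lesions over the mean intact brain of its own diet, with lesions ordered by rising score, mild lesions in red and other lesions in purple. Left, genes changed at least 2-fold in mild lesions (1176 higher, 317 lower); right, genes changed at least 2-fold in the other lesions (2451 higher, 1601 lower). The upper bars tend to be higher at higher scores in both columns, with drops between neighbouring lesions, and the lower bars are flatter on the left than on the right. The score also set the groups in which the genes were picked.

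The 2 largest rises and the 2 largest falls among called genes that averaged 1 CPM or more in the higher group are given by ID, as TMM-scaled CPM. ENSRNOG00000054251 had the second-largest rise. It had 9.06 CPM in ketogenic lesion 27, 11.1 in ketogenic lesion 31, 13.4 in ketogenic lesion 9, 16.3 in ketogenic lesion 25 and 19.5 in ketogenic lesion 29. Standard-diet lesions 71, 70 and 82 had 20.9, 28.1 and 47.3 CPM, against a lowest, median and highest value of 0.0648, 0.313 and 1.07 CPM in intact brain. All 8 mild lesions lay above all intact brains, with 20.7 ± 12.3 CPM (SD, n = 8) against 0.390 ± 0.331 CPM (SD, n = 16). The log2 fold change was 5.87 (SE 0.27, edgeR adjusted p = 2.24e-14). The other lesions lay between 41.7 and 149 CPM, and their log2 fold change over intact brain was 7.77 (SE 0.24, edgeR adjusted p = 4.35e-26), and only the highest mild lesion reached into their range.

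ENSRNOG00000029949 had the largest fitted rise and was nearly absent from intact brain, with 1 count over the 16 libraries and 0 in 15 of them. It had 2.17 CPM in ketogenic lesion 27, 1.66 in ketogenic lesion 31, 0.905 in ketogenic lesion 9, 0.824 in ketogenic lesion 25 and 0.617 in ketogenic lesion 29. Standard-diet lesions 71, 70 and 82 had 1.06, 1.01 and 0.906 CPM. The highest value belonged to the lesion with the lowest immune score, unlike the gene above, and all 8 lesions lay above all intact brains. Pooled counts gave a ratio of 260.4 of mild lesions over intact brain, with an exact 95% counting interval from 46.2 to 10330 that covers counting error only. The fitted log2 fold change was 6.56 (SE 0.40, edgeR adjusted p = 1.17e-12), but its size rests on that near-zero intact level and came to 4.66 with limma voom and quality weights. The other lesions had a median of 1.85 CPM and went from 0.117 to 15.3 CPM, so the mild lesions lay inside their range.

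ENSRNOG00000017987 had the largest fall. It had 0 CPM in standard-diet lesion 71, 0.266 in standard-diet lesion 82 and 0.911 in standard-diet lesion 70. Ketogenic lesions 29, 27, 31, 9 and 25 had 0.116, 0.170, 0.392, 0.474 and 0.536 CPM, against a lowest, median and highest value of 0.572, 3.15 and 8.25 CPM in intact brain. Of the mild lesions, 7 lay below all intact brains, and standard-diet lesion 70 lay above the lowest of them, intact standard-diet brain 83. Means were 0.358 ± 0.288 CPM in mild lesions (SD, n = 8) and 3.65 ± 2.12 CPM in intact brain (SD, n = 16), with a log2 fold change of -3.34 (SE 0.47, edgeR adjusted p = 1.28e-06). In the other lesions the median was 0.594 CPM and the log2 fold change over intact brain -2.54 (SE 0.27, edgeR adjusted p = 3.72e-11).

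ENSRNOG00000063840 fell next furthest. It had 0.610, 0.655, 1.03, 1.22 and 1.55 CPM in ketogenic lesions 31, 29, 25, 27 and 9, and 1.20, 1.65 and 1.85 CPM in standard-diet lesions 70, 82 and 71. Intact brains had a lowest, median and highest value of 3.22, 7.85 and 18.3 CPM, so the groups did not overlap. Means were 1.22 ± 0.451 CPM in mild lesions (SD, n = 8) and 8.36 ± 4.18 CPM in intact brain (SD, n = 16). The log2 fold change was -2.78 (SE 0.31, edgeR adjusted p = 5.13e-08). The other lesions had a median of 0.854 CPM and a log2 fold change over intact brain of -3.24 (SE 0.20, edgeR adjusted p = 2.52e-17), and their range, 0.329 to 1.44 CPM, overlapped that of the mild lesions.

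**Figure D5:**
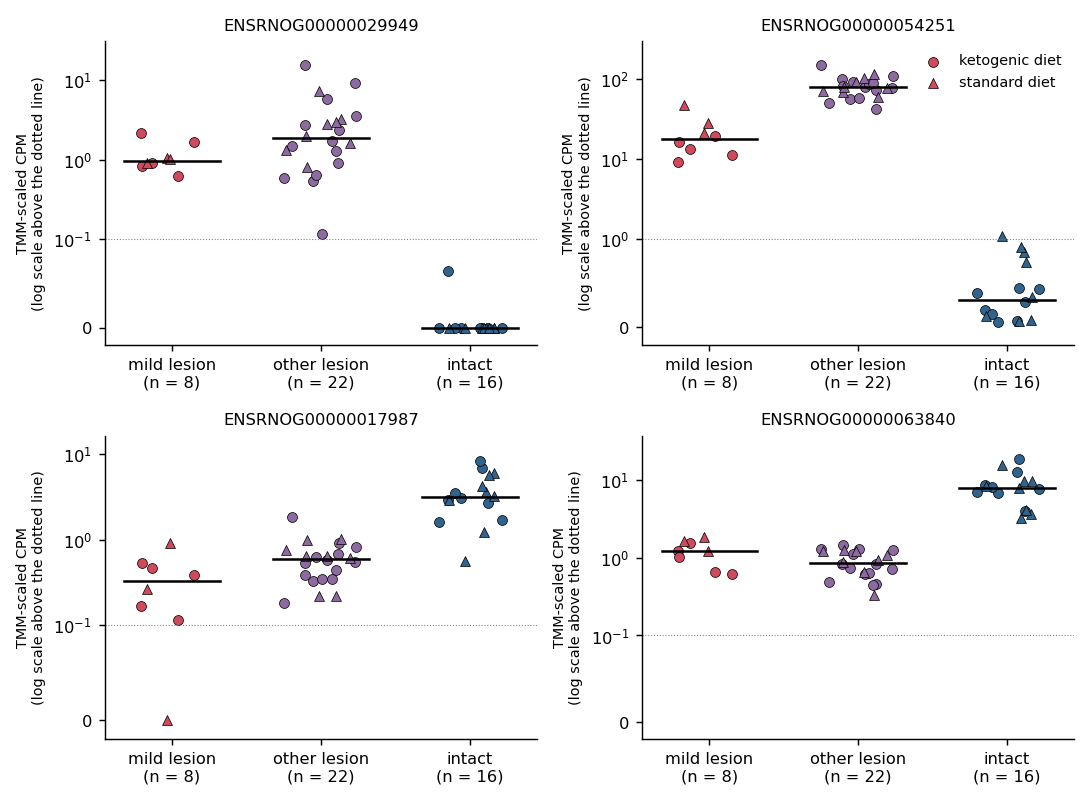
TMM-scaled CPM of the 4 named IDs in every library of the mild lesions (n = 8), other lesions (n = 22) and intact brain (n = 16), with circles for the ketogenic and triangles for the standard diet. The vertical axis is logarithmic above the dotted line and linear below it, and black bars are medians; ENSRNOG00000054251 has medians of 17.9, 79.7 and 0.313 CPM in the order of the groups.

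Diet was the remaining question, since the mild lesions came from both. Within the ketogenic diet, 5 mild lesions against 8 intact brains gave 3815 higher (25.1%) and 3640 lower genes (23.9%), 49.0% of 15210 tested (edgeR, adjusted p under 0.05). Within the standard diet, 3 against 8 gave 2978 higher (19.2%) and 2461 lower (15.9%), 35.1% of 15510 tested. The 4 named IDs passed on each diet with the same sign. They were picked as the largest changes in these same libraries, so this is a description and tests nothing. For ENSRNOG00000054251 the log2 fold change was 5.80 (SE 0.30) on the ketogenic and 5.97 (SE 0.44) on the standard diet, with levels in mild lesions of 13.9 ± 4.15 CPM (SD, n = 5) and 32.1 ± 13.6 CPM (SD, n = 3). Its intact levels were 0.255 ± 0.155 CPM and 0.525 ± 0.411 CPM (SD, n = 8 each), in the same order of diets. For ENSRNOG00000063840 the changes were -3.13 (SE 0.35) on the ketogenic and -2.26 (SE 0.47) on the standard diet.

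Whether the change from intact brain differed between diets depended on the tool. The interaction of diet and lesion called 0 of 15278 genes (edgeR, smallest adjusted p = 0.17), and 1391 genes had p under 0.05 before adjustment. DESeq2 was run on 22116 genes, without the filter on low counts. It called 9 genes with a more positive and 2 with a more negative log2 change on the ketogenic diet. Without that filter edgeR called 0 genes higher and 0 lower. For 73.3% of genes the interaction's 95% interval stayed inside 2-fold, and for 37% inside 1.5-fold, and for the rest larger differences are not excluded. For the 4 named IDs the interaction had edgeR adjusted p of 0.957 (ENSRNOG00000054251), 0.758 (ENSRNOG00000029949), 0.91 (ENSRNOG00000017987) and 0.646 (ENSRNOG00000063840), none of which passed. The 3 standard-diet lesions had scores from 6.12 to 7.09 and the 5 ketogenic ones from 4.89 to 6.87, so diet and immune score were not evenly matched among the mild lesions.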

How the data were processed

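Per the labels' protocols, polyA-selected RNA was sequenced from strand-marking libraries. Among the tools in the submitters' processing notes are HTSeq 0.7.2, HISAT2 2.0.5 and DESeq2 1.42.0, with mRatBN7.2 as build. The sources used here do not give the annotation release or the strand setting, so a gene's reads may include those of an overlapping or antisense partner. The authors deposited raw counts per gene, without normalization, in a series-wide table and in 46 files whose values were the same (0 cells differed). A further 39 columns of that table belong to no sample described here and were not used.

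Differences between groups were fitted to the counts by edgeR 4.0.16 under R 4.3.3 (TMM, filterByExpr, robust quasi-likelihood F test, Benjamini-Hochberg adjustment, called under 0.05), fitted on all genes but the 4 score genes, with diet as covariate. The fit was tested on simulated data with few changed genes, balanced between rises and falls. That setting does not test it under changes as wide and uneven as those found here. SEs are the fold change divided by the root of F. CPM per library used TMM factors over 46 libraries, except in the score, which used totals. Alternatives were DESeq2 1.42.0, limma 3.58.1 voom, other scalings, filters, scores and numbers of lesions, single diets, thinning (added after seeing the data) and leaving out each of 24 libraries. Genes were named by rule: the 2 largest rises and falls among called genes averaging 1 CPM or more in the higher group. Planned symbol lists could not be joined to the IDs and none was tested. The lesions, lists and tests were chosen with earlier results of these data known. No 2 libraries of a group were alike within sampling noise (smallest chi-square per degree of freedom 12.2). The labels number samples but do not say that each is a separate rat, so p-values measure the spread between these samples.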

Additional observations from a re-analysis of the deposited data

Results flagged for a closer look

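Values per library were checked for a sample far from the others of its group in 43 sets of values, 2 of which held such a sample; chance alone flags about 1 in 20. Ketogenic mild lesion 27, which also has the lowest immune score, had the largest total at 30601841 counts, far from the next of the 5 ketogenic mild lesions. Without it 4411 genes were called higher and 4637 lower in mild lesions. ENSRNOG00000029949 had 0.064 CPM in intact ketogenic brain 47, which is 1 count, and 0 in the other intact brains of that diet.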

How the results depend on the processing

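The counts of 4417 higher and 4602 lower genes in mild lesions kept within 1.5 times under 17 and 16 of 18 alternatives; 4 of the 18, the scores without Cd68, Ptprc or Csf1r and the TMM-scaled score, picked the same 8 lesions and so repeat the same fit. Library totals in place of TMM gave 7160 higher and 2179 lower genes, and the standard diet alone, with 3 mild lesions, gave 2461 lower genes. With the other lesions, library totals gave 4178 lower genes against 6580. The interaction of diet and lesion called 0 genes with edgeR in all settings, but 9 higher and 2 lower with DESeq2; the cause was not tested. Leaving out each of the 24 libraries gave from 4250 to 4547 higher and from 4049 to 4637 lower genes. Taking the 5 or the 12 lowest-scoring lesions gave 3979 and 5089 higher and 3639 and 4936 lower genes, and dropping any score gene changed at most 1 of the 8 lesions. The 4 named IDs kept their direction and their call in every alternative that tested them; ENSRNOG00000029949 was filtered out at a minimum mean of 1 CPM and after thinning. Their adjusted p reached at most 0.013, on the standard diet. These IDs were picked for their large changes in the same libraries, so their steadiness follows in part from that choice. Genes of low level rest on the fewest counts: of the 840 under 1 CPM, 14.2% rose and 17.9% fell, and the part of depth in these shares was not tested. No paired analysis was possible because the groups share no replicate number.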
